A study of Rattus norvegicus with 20 samples.

Results

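Expression of 6 genes, Ssc5d, Scube1, Fcrl2, Smagp, Pdlim1, and Pla2g7, was followed across rat dorsal root ganglia (DRG) taken after nerve injury on a soy oil or a fish oil diet. They are 6 of 39747 genes in the count table, and they were picked by symbol because they had differed between the left and right DRG of injured rats, or between injured and sham rats, in these same libraries. They are not among the 24 well-known nerve injury genes, such as Atf3 and Gal, that served as a point of reference. Injury and side differences below are therefore a description of the 6 genes, without a test, and the tests concern diet.

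The study fed young adult, wild-type female Sprague–Dawley rats a soy oil diet (SOD) or an omega-3 rich fish oil diet (FOD), from 4 weeks before surgery, to ask whether the fish oil diet alters neuropathic pain. Chronic constriction injury (CCI) was made with loose ligatures on the left sciatic nerve, and control rats (CT) had the nerve exposed without ligatures, so no group was left unoperated. Left DRG were sequenced in 4 control and 3 injured rats on SOD and in 3 control and 4 injured rats on FOD. Right (contralateral) DRG came from the same injured rats, 3 on each diet, which gives 20 libraries from 14 rats. By the account of the paper DRG were taken 1 week after surgery, whereas the public description has the diets going on for 4 more weeks. FOD-CCI replicate 4 has no contralateral library here.

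A DRG holds the cell bodies of sensory neurons, each wrapped by satellite glia, with Schwann cells along the axons and with resident macrophages, fibroblasts, and vessels between them. When the peripheral axon is injured, neurons switch on a growth program, and macrophages gather around them. Ssc5d encodes a secreted scavenger receptor cysteine-rich (SRCR) glycoprotein that binds matrix proteins and bacteria. Scube1 encodes a secreted and cell surface glycoprotein with CUB and EGF-like domains. Fcrl2 belongs to the Fc receptor-like family of immune receptors, and Smagp encodes a small transmembrane glycoprotein of epithelial cell contacts. Pdlim1 encodes an adaptor with a PDZ and a LIM domain that binds alpha-actinin on actin filaments. Pla2g7 encodes the secreted platelet-activating factor (PAF) acetylhydrolase, which cleaves PAF and oxidized phospholipids.

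Libraries held between 22547190 and 54437581 counts. Neuron, satellite glia, and Schwann cell markers (16, 7, and 8 genes) were above a CPM (counts scaled to a common library size) of 1 in the median library. The libraries numbered 1 in the sham, injured, and contralateral groups on FOD stood apart: the summed CPM of 7 spinal cord glia markers was 2475 to 4164 in these 3 libraries and at most 119.7 in the other 17. SOD-CT replicate 1 carried the most skeletal muscle transcripts, with a summed 129800 CPM over 8 muscle markers. The sum was 18950 CPM in FOD-CT replicate 2, 6392 CPM in FOD-CCI contralateral replicate 3, and 4671 CPM in SOD-CT replicate 4. Other sham and contralateral libraries ranged down to 4.99 CPM. Injured left libraries held at most 50.65 CPM on SOD and 157.4 CPM on FOD. FOD-CCI replicate 2 held the most red cell transcripts, a summed 10630 CPM. Several results that rest on the libraries with spinal cord transcripts are given with and without them. For SOD-CT replicate 1, values without it are given for Fcrl2 and Smagp, and for Pla2g7 after injury a range. In whole ganglia, fewer cells of a type and less RNA per cell cannot be told apart.

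The 250 bases before the annotated gene start were read from the RefSeq table of build GRCr8, where 5 of the 6 genes matched and Fcrl2 did not. The pair printed here belongs to the gene that was lower on the injured side, Pla2g7 (chr9:24901748-24901997, minus strand), and to the gene with the largest side difference on SOD, Smagp (chr7:133616328-133616577, minus strand). Capitals mark the AP-1 motif TGACTCA in Pla2g7 and the GC box GGGCGG in Smagp.
Pla2g7: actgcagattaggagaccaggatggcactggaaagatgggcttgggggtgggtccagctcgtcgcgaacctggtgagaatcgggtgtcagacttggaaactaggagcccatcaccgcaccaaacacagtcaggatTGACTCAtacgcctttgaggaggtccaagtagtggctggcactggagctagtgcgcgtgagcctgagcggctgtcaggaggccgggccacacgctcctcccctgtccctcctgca
Smagp: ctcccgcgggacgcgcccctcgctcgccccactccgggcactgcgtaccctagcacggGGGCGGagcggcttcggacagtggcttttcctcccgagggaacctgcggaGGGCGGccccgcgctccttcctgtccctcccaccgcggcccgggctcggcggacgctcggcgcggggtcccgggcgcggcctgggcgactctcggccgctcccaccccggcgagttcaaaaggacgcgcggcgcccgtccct

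Motifs were searched on both strands of these windows. The AP-1 motif was found in Pla2g7 alone among the 5 genes, 115 bases before the start, and it is present in 4.05% of 33469 promoters of that length. GC boxes, present in 30.5% of promoters, numbered 6 in Pdlim1, 3 in Scube1, 2 in Smagp, and 1 in Ssc5d. A CCAAT motif, held by 34% of promoters, lay in the Scube1 window. The cyclic AMP response element, searched as TGACGTCA and held by 1.59% of promoters, was not found in the 5 windows. Neither was the TATA box, searched as the letters TATAAA and held by 12.9% of promoters. The windows were rich in G and C, from 60% in Pla2g7 to 77.6% in Smagp. A match is a description of the letters and not of a bound site.

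Of the 6 genes, 5 were, by group means, higher in injured DRG than in sham or contralateral DRG on both diets, and Pla2g7 was lower. The plot of CPM by group shows all 20 libraries. On SOD, the injured libraries lay above every sham library for 5 of the 6 genes, all but Pla2g7, against 9.54% of the 14484 tested genes, and 8.10% of genes lay below without overlap. On FOD, this held for Ssc5d alone, against 2.47% of genes above and 2.12% below. At an unadjusted p under 0.05 there were 13.8% of genes on SOD and 4.52% on FOD by edgeR, which called none (0%). DESeq2 called 594 genes on SOD, 4 of them members, and 21 on FOD, 2 of them members. These contrasts chose the genes, so nothing is read from the counts.

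**Figure D1:**
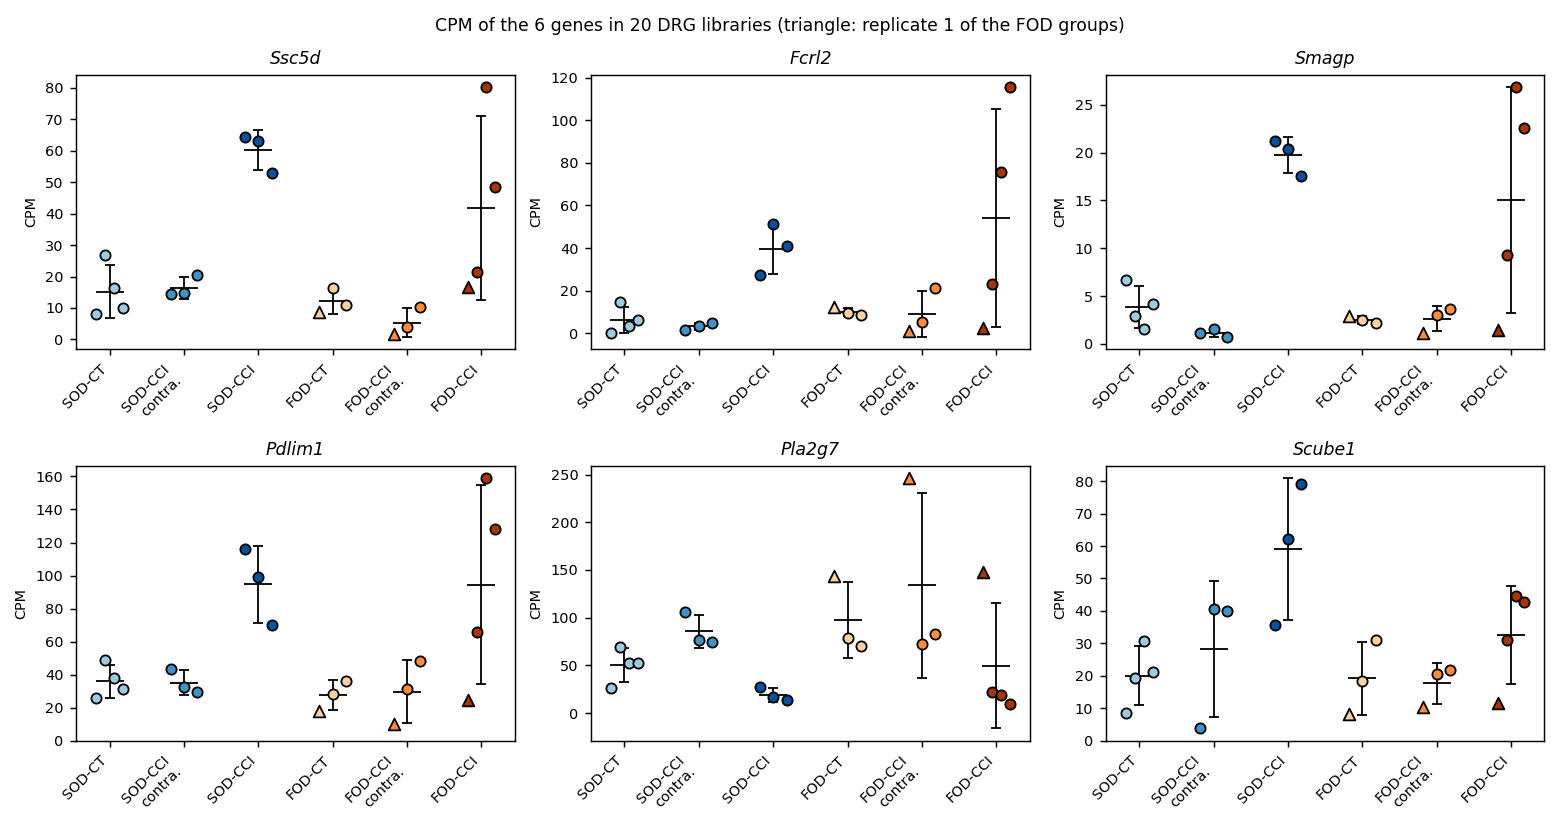
CPM (linear axis) of each gene in the 20 libraries, by group, with the group mean and SD. Triangles are replicate 1 of the FOD groups, the libraries with spinal cord transcripts. SOD-CCI libraries sit above all SOD-CT libraries for every gene except Pla2g7, and the FOD-CCI triangle is the lowest FOD-CCI library for those 5 genes and the highest for Pla2g7, at 147.6 CPM.

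Ssc5d, the secreted SRCR protein, was measured at 8.01, 26.7, 16.2, and 10.02 CPM in the 4 SOD-CT libraries and at 64.4, 63.3, and 52.9 CPM in the 3 SOD-CCI libraries. The contralateral DRG of those SOD-CCI rats held 14.3, 14.6, and 20.5 CPM. The injured libraries thus stood clear of both control groups. On FOD, sham libraries held 8.76, 16.4, and 11.1 CPM, injured libraries 16.8, 21.4, 80.3, and 48.6 CPM, and contralateral libraries 1.81, 3.81, and 10.4 CPM. The FOD-CCI libraries did not overlap either FOD control group, but the lowest of them exceeded the highest FOD-CT library by little. The log2 fold change (log2FC) of injury was 1.99 (SE 0.50) on SOD and 1.78 (SE 0.53) on FOD.

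Scube1, the CUB and EGF domain glycoprotein, was measured at 8.61, 19.2, 30.8, and 21.1 CPM in SOD-CT and at 35.7, 62.3, and 79.1 CPM in SOD-CCI. The SOD-CCI contralateral libraries held 3.89, 40.6, and 39.9 CPM. Injured and sham libraries did not overlap, whereas injured and contralateral libraries did. FOD-CT libraries held 8.31, 18.4, and 30.9 CPM, FOD-CCI libraries 11.7, 30.9, 44.5, and 42.8 CPM, and FOD-CCI contralateral libraries 10.5, 20.6, and 21.9 CPM. All 3 FOD groups overlapped. The log2FC of injury was 1.58 (SE 0.51) on SOD and 0.76 (SE 0.52) on FOD.

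Fcrl2, the Fc receptor-like gene, had 0 counts in SOD-CT replicate 1, which allows a level of up to 0.200 CPM (3 counts, counting error only), and 14.8, 3.44, and 6.33 CPM in the other SOD-CT libraries. SOD-CCI libraries held 27.3, 51.2, and 40.8 CPM and their contralateral libraries 1.36, 3.30, and 4.85 CPM. No injured library on SOD overlapped a control library. FOD-CT libraries held 12.2, 9.21, and 8.30 CPM, FOD-CCI libraries 2.35, 23.0, 75.9, and 115.7 CPM, and FOD-CCI contralateral libraries 0.741, 5.22, and 21.4 CPM. The 4 FOD-CCI libraries were far apart, with replicate 1 below all FOD-CT libraries and the other 3 above them. The log2FC of injury was 2.70 (SE 1.10) on SOD and 2.46 (SE 1.16) on FOD, and the SOD value was 2.29 without SOD-CT replicate 1 and 3.60 without SOD-CT replicate 2. The FOD value was 1.74 without FOD-CCI replicate 4.

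Smagp, the small adhesion glycoprotein, was measured at 6.67, 2.90, 1.52, and 4.21 CPM in SOD-CT. The highest of these came from SOD-CT replicate 1, the library with the most muscle transcripts. SOD-CCI libraries held 21.3, 20.4, and 17.6 CPM. Contralateral SOD-CCI libraries held 1.17, 1.52, and 0.735 CPM, from 31 to 46 counts each. The 3 injured libraries were close to each other and far above both control groups. FOD-CT libraries held 2.95, 2.46, and 2.14 CPM, FOD-CCI libraries 1.43, 9.26, 26.9, and 22.6 CPM, and FOD-CCI contralateral libraries 1.15, 3.00, and 3.67 CPM. Replicate 1 of FOD-CCI fell within the control range, and the other 3 were above it. The log2FC of injury was 2.38 (SE 0.70) on SOD and 2.57 (SE 0.75) on FOD. Without SOD-CT replicate 1, the SOD value was 2.78.

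Pdlim1, the actin adaptor, was measured at 25.7, 48.9, 38.1, and 31.2 CPM in SOD-CT, at 115.8, 98.8, and 69.8 CPM in SOD-CCI, and at 43.5, 32.7, and 29.4 CPM in SOD-CCI contralateral DRG. Injured libraries did not overlap either control group. FOD-CT libraries held 18.2, 28.3, and 36.2 CPM, FOD-CCI libraries 24.9, 65.9, 159.0, and 128.0 CPM, and FOD-CCI contralateral libraries 10.04, 31.1, and 48 CPM. Again 3 of the 4 FOD-CCI libraries lay above the controls and replicate 1 among them. The log2FC of injury was 1.41 (SE 0.47) on SOD and 1.77 (SE 0.49) on FOD.

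Pla2g7, the PAF acetylhydrolase, went the other way. It was measured at 26.2, 68.9, 52.5, and 52.4 CPM in SOD-CT, at 27.0, 16.3, and 13.4 CPM in SOD-CCI, and at 105.6, 76.6, and 74.9 CPM in SOD-CCI contralateral DRG. Injured libraries were below every contralateral library and overlapped sham only through the library with the most muscle transcripts, SOD-CT replicate 1. FOD-CT libraries held 143.5, 78.5, and 70.6 CPM, FOD-CCI libraries 147.6, 22.3, 19.4, and 9.49 CPM, and FOD-CCI contralateral libraries 246.1, 72.1, and 83.1 CPM. The highest library of each FOD group was replicate 1, which carried the spinal cord transcripts. The log2FC of injury was −1.40 (SE 0.74) on SOD and −0.98 (SE 0.71) on FOD. Without the 3 libraries with spinal cord transcripts, it was −1.39 (SE 0.37) on SOD and −2.14 (SE 0.43) on FOD. With each left library left out in turn, SOD-CT replicate 1 among them, the SOD value stayed between −1.73 and −1.20.

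Left and contralateral DRG of the same rat were compared next, as shown in the plot of the 6 rats. The left DRG was higher in 6 of 6 rats for Ssc5d, Scube1, Fcrl2, Smagp, and Pdlim1, and lower in 6 of 6 rats for Pla2g7. Among 14549 genes, 5.24% were higher and 2.74% lower in all 6 rats. As groups, left and right libraries on SOD did not overlap for Ssc5d, Fcrl2, Smagp, and Pdlim1 (10.1% of genes higher) or for Pla2g7 (10.5% lower), and on FOD for Ssc5d (3.70% higher, 2.23% lower). With the rat as a block, 5 of the 6 genes, all but Scube1, were among the 19 genes called on SOD (0.131% of genes), and Ssc5d was 1 of the 2 called on FOD (0.0137%), where called means that edgeR gave an adjusted p no higher than 0.1 together with a change of 1.2-fold or more. At an unadjusted p under 0.05 there were 8.48% of genes on SOD and 6.96% on FOD. Again these contrasts chose the genes, and nothing is read from the counts.

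**Figure D2:**
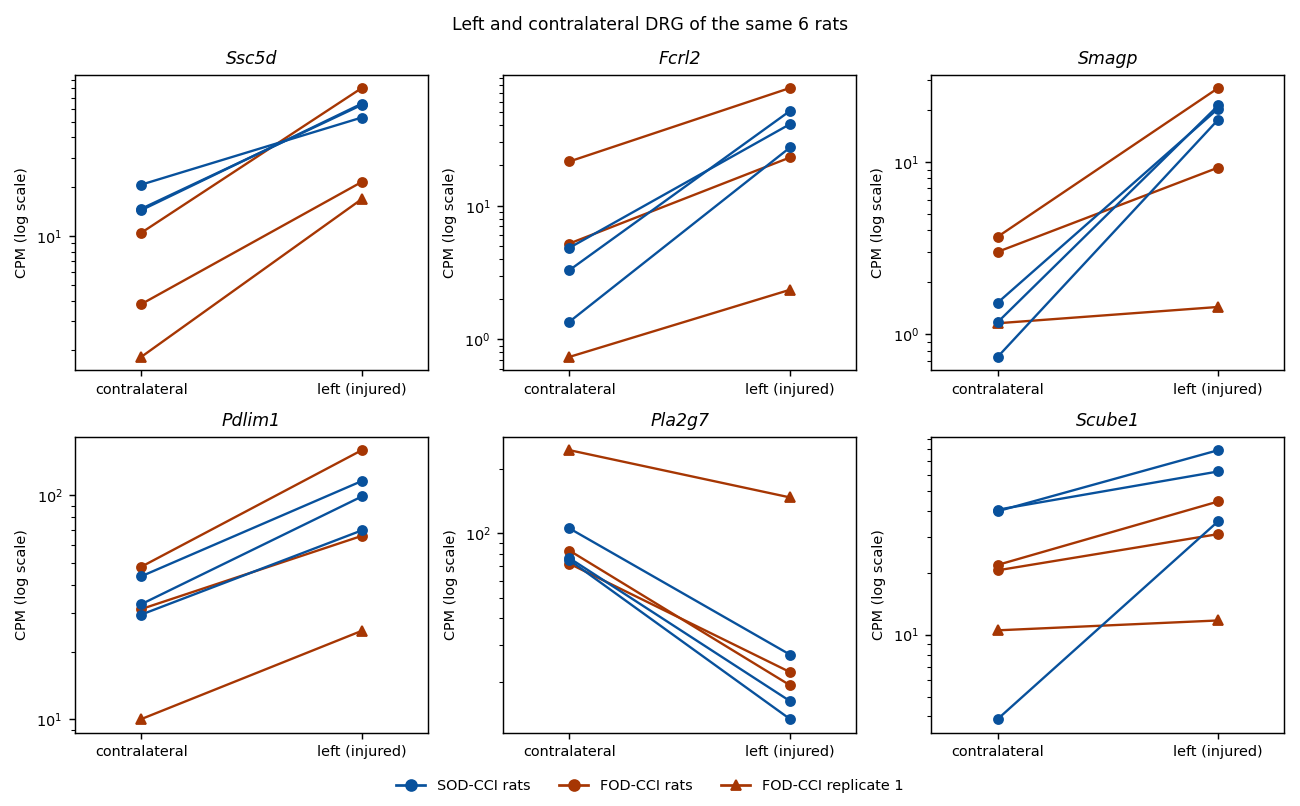
CPM (log axis) in the contralateral and the left DRG of each of the 6 CCI rats, joined by a line, in blue for SOD-CCI and brown for FOD-CCI. The lines go up in all 6 rats for 5 genes and down in all 6 for Pla2g7, and they are steeper on SOD than on FOD for Fcrl2 and Smagp.

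The side difference (log2FC, left minus right) was largest for Smagp on SOD, at 4.19 (SE 0.52), followed by Fcrl2 at 3.79 (SE 0.31), and on FOD these were 1.62 (SE 0.50) and 1.85 (SE 0.29). On FOD the largest was that of Ssc5d, at 2.83 (SE 0.26), against 1.91 (SE 0.24) on SOD. Pdlim1 was at 1.45 (SE 0.19) and 1.33 (SE 0.19), Scube1 at 1.57 (SE 0.46) and 0.55 (SE 0.43), and Pla2g7 at −2.20 (SE 0.27) and −1.56 (SE 0.27). These differences varied from rat to rat. For Smagp the left-to-right ratio was 18.2, 13.4, and 23.9 in the SOD-CCI rats and 1.24, 3.09, and 7.32 in the FOD-CCI rats. For Fcrl2 it was 20.1, 15.5, and 8.41 on SOD and 3.18, 4.40, and 3.54 on FOD. For both genes each SOD ratio was above each FOD ratio. Ssc5d showed the opposite order, with 4.49, 4.33, and 2.58 on SOD and 9.26, 5.60, and 7.70 on FOD. The share of all genes with ratios separated in this way was not counted. Side differences chose the genes, so nothing is read from this order. Pdlim1 ratios were much alike, from 2.38 to 3.02 on SOD and from 2.12 to 3.31 on FOD. Scube1 ratios were 9.18, 1.54, and 1.98 on SOD and 1.12, 1.501, and 2.04 on FOD, so that SOD-CCI replicate 1 stood alone. The right-to-left ratio of Pla2g7 was 3.92, 4.69, and 5.58 on SOD and 1.67, 3.23, and 4.29 on FOD.

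Whether the side difference depended on diet was tested with an interaction term over the 12 libraries of these rats. The interaction log2FC (FOD minus SOD) was −1.94 (SE 0.40) for Fcrl2, −2.57 (SE 0.68) for Smagp, and 0.92 (SE 0.34) for Ssc5d. By edgeR, none of the 6 genes was called (0% of genes called), and each adjusted p was 0.997. At an unadjusted p under 0.05 there were 3 of the 6, against 2.91% of all genes. DESeq2 called 60 of the 14549 genes, among them Fcrl2 (−1.92, SE 0.48, adjusted p = 0.0324) and Smagp (−2.56, SE 0.70, adjusted p = 0.0753). The interaction is built from the side differences by which the genes were picked, so it is not independent of that choice. Without the 3 libraries with spinal cord transcripts, the values were −1.85 (SE 0.41) for Fcrl2, −1.98 (SE 0.54) for Smagp, and 0.76 (SE 0.34) for Ssc5d. With sham in place of the right DRG as the reference, the interaction was −0.24 (SE 1.51), 0.20 (SE 0.97), and −0.22 (SE 0.70), in that order. The diet difference of the same genes was 1.61, 1.27, and −1.54 in contralateral DRG. In injured left DRG it was 0.46, −0.38, and −0.53. Marker lists moved with the side interaction. Macrophage markers were lower in 8 of 9 genes tested (median −1.45, 4 at an unadjusted p under 0.05, with Csf1r and C1qb called by DESeq2). Fibroblast markers were lower in 5 of 5 (median −1.78) and nerve injury genes in 16 of 19 (median −0.86), against a median of 0.03 over all genes. Mural cell markers were lower in 6 of 6 (median −0.67), endothelial markers in 8 of 8 (median −0.42), and satellite glia markers in 7 of 7 (median −0.12). Neuron markers went the other way, higher in 15 of 16 (median 0.82). With sham as the reference, macrophage markers were higher in 9 of 9 (median 0.79) and fibroblast markers in 5 of 5 (median 0.75). Nerve injury genes were lower in 12 of 18 (median −0.19) and neuron markers in 15 of 16 (median −0.31), against 0.02 over all genes. Their part in the result was not tested. For Pdlim1 the side interaction was −0.12 with a 95% interval from −0.62 to 0.39, for Pla2g7 0.64 (−0.09 to 1.38), and for Scube1 −1.02 (−2.24 to 0.20).

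The diets were also compared in contralateral DRG alone. Ssc5d was lower in each FOD library than in each SOD library (log2FC −1.54, SE 0.60, adjusted p = 0.697 by edgeR). The value was −2.50 without FOD-CCI contralateral replicate 3 and −1.13 without the libraries with spinal cord transcripts. For the other 5 genes the groups overlapped, and 11% of the 14007 genes tested were lower and 6.55% higher on FOD without overlap. Smagp was higher on FOD by a log2FC of 1.27 (SE 0.67) and Fcrl2 by 1.61 (SE 1.27). No member was called by edgeR (0% of genes) or by DESeq2, and 1 of the 6, Ssc5d, had an unadjusted p under 0.05, against 7.10% of genes. The log2FC of Pla2g7 was 0.73 (SE 0.47) with all libraries and −0.06 without replicate 1 of the FOD groups. Macrophage markers moved with this comparison: their summed CPM ranged from 39.0 to 89.9 in contralateral SOD-CCI and from 134.3 to 318.4 in contralateral FOD-CCI. Red cell markers were also higher on FOD in 6 of 6 genes tested (median log2FC 3.25) and endothelial markers in 8 of 8 (median 1.07). Neuron markers were lower in 14 of 16 (median −0.53), against a median of 0.04 over all genes. The part of these cells in the result was not tested.

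Against sham DRG, contralateral SOD-CCI differed by a log2FC of −1.78 (SE 0.65) for Smagp, −0.98 (SE 1.19) for Fcrl2, and 0.75 (SE 0.44) for Pla2g7. The same difference on FOD was 0.08 (SE 0.65) for Smagp, −0.08 (SE 1.24) for Fcrl2, and 0.49 (SE 0.47) for Pla2g7. For Ssc5d it was 0.09 (SE 0.54) on SOD and −1.14 (SE 0.59) on FOD, the latter −2.08 without FOD-CCI contralateral replicate 3. For Pdlim1 and Scube1 it stayed between −0.08 and 0.47 on both diets. These libraries are shared with the contrasts that chose the genes, and no test is given.

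Diet was then compared in left DRG, where no member was called by edgeR (0% of genes) in injured or in sham rats. DESeq2 called none of the 6 either, and no member had an unadjusted edgeR p under 0.05, against 5.40% of genes after injury and 3.39% in sham rats. After injury, FOD minus SOD gave a log2FC of −0.53 (95% interval −1.495 to 0.44) for Ssc5d, 0.46 (−1.64 to 2.57) for Fcrl2, −0.38 (−1.72 to 0.94) for Smagp, and 0.00 (−0.91 to 0.92) for Pdlim1. Scube1 was at −0.86 (−1.86 to 0.15) and Pla2g7 at 1.40 (−0.05 to 2.86). These intervals leave room for differences of over 1 log2 unit in 5 of the genes. The value for Pla2g7 came from 1 library: without FOD-CCI replicate 1 it was −0.14. No member separated the groups, whereas 7.10% of genes were higher and 6.94% lower on FOD without overlap.

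**Figure D3:**
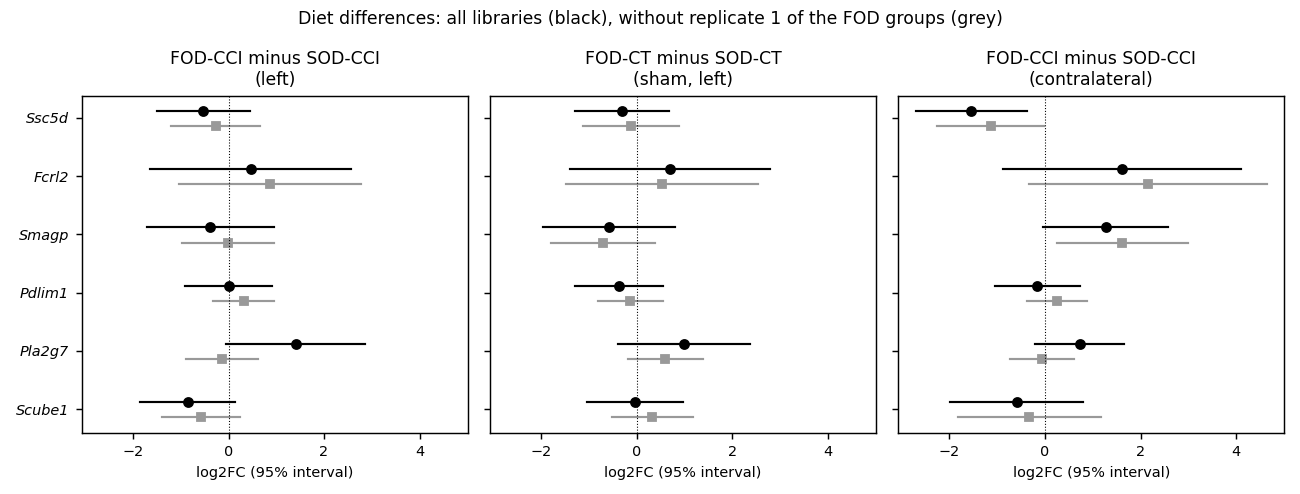
Difference between diets (log2FC, FOD minus SOD, with 95% intervals) for each gene in injured left, sham left, and contralateral DRG. Black circles use all libraries and grey squares leave out replicate 1 of the FOD groups. Pla2g7 moves from 1.40 to −0.14 in injured DRG when those libraries are left out.

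In sham DRG, the diet difference ran from −0.58 (SE 0.70) for Smagp to 0.99 (SE 0.71) for Pla2g7, with adjusted p between 0.965 and 0.997 by edgeR. Smagp was at −0.18 without SOD-CT replicate 1, and Pla2g7 at 0.60 without FOD-CT replicate 1. Pla2g7 was the member without overlap here, higher in all 3 FOD-CT libraries than in the 4 SOD-CT libraries, against 1.57% of genes higher and 1.62% lower. Its lowest FOD-CT value, 70.6 CPM, was close to the highest SOD-CT value, 68.9 CPM. The change after injury was compared between diets with an interaction, which is also built from differences that chose the genes. It ranged from −0.82 (SE 0.73) for Scube1 to 0.42 (SE 1.01) for Pla2g7, none of the 6 was called by edgeR (0% of genes), and none had an unadjusted p under 0.05 (5.01% of genes). DESeq2 gave no adjusted p for the 6 genes here.

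In FPKM, which scales for gene length and so allows genes to be set side by side, the order of the group means changed with injury on SOD. Pla2g7 had the highest mean in sham DRG (27.9 ± 9.29 FPKM, SD, n = 4, on SOD and 54.4 ± 22.2, n = 3, on FOD) and in contralateral DRG (46.8 ± 9.01 and 76.9 ± 56.4, n = 3 each). Pdlim1 came next in all 4 of those groups, and in SOD-CT the pair did not differ beyond its spread (25.6 ± 6.49 for Pdlim1), nor did it in contralateral FOD-CCI (21.7 ± 13.9). The other 4 genes had means between 0.743 and 6.47 FPKM there, and neighbors in that order lay within their SDs of each other, except Ssc5d (3.55 ± 0.707) and Fcrl2 (1.36 ± 0.740) in contralateral SOD-CCI. In injured DRG, Pdlim1 had the highest mean at 66.9 ± 16.4 FPKM (n = 3) on SOD and 66.9 ± 41.97 (n = 4) on FOD. In SOD-CCI, Fcrl2 was at 17.3 ± 5.27 FPKM, Scube1 at 13.7 ± 5.08, Ssc5d at 13.2 ± 1.38, Smagp at 12.96 ± 1.25, and Pla2g7 at 10.5 ± 3.92, and no neighbors in this order differed beyond their spread. In FOD-CCI, Pla2g7, at 27.6 ± 36.4 FPKM, had an SD larger than its mean, and it did not differ from Pdlim1 beyond that spread.

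FOD-CCI replicate 1 was the lowest FOD-CCI library in 5 of the genes and the highest in Pla2g7. Its summed level of the 24 nerve injury genes was 606.9 CPM, whereas sham libraries lay between 516.2 and 977.5 CPM and SOD-CCI libraries between 2949 and 3691 CPM. The other FOD-CCI libraries held 1835, 5049, and 3679 CPM, so replicate 2 was also below every SOD-CCI library. This rat still had a left DRG above its right DRG in the 5 genes, by ratios of 1.12 for Scube1, 1.24 for Smagp, 2.48 for Pdlim1, 3.18 for Fcrl2, and 9.26 for Ssc5d. Without the 3 libraries with spinal cord transcripts, the log2FC of injury on FOD was 1.85 for Ssc5d, 3.04 for Fcrl2, 3.08 for Smagp, 1.86 for Pdlim1, and 0.68 for Scube1. With the whole rat left out of the side comparison, edgeR called 471 genes on SOD and 137 on FOD, 5 of them members on each diet. The side difference chose the members, and nothing is read from this count.

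Markers of other cells moved with some of the genes, as the plot against marker sums shows. Pla2g7 was highest in the 3 libraries with spinal cord glia transcripts (143.5 to 246.1 CPM, against at most 105.6 CPM elsewhere). Over the other 17 libraries, its deviations from the group means correlated with the spinal cord glia sum at r = −0.48, against 0.656 over all 20. With the neuron markers this r was 0.69 over the 17 and −0.24 over the 20. With the satellite glia markers it was −0.619 and 0.662. Fcrl2 followed the 10 macrophage markers, with a Spearman rho of 0.699 over 20 libraries and a within-group r of 0.645 over the 20 and 0.835 over the 17. The macrophage sum was 206.9 to 306.7 CPM in SOD-CCI and 179.6 to 692.2 CPM in FOD-CCI, against 56.4 to 205.9 CPM in SOD-CT and 70.8 to 294.5 CPM in FOD-CT. Cd68, C1qb, Cd163, Itgam, and Cx3cr1 were at 0 in at least 1 library, and the 8 T and B cell markers summed to between 0 and 58.3 CPM. Fcrl2 also followed the 16 neuron markers within groups (r = 0.805 over the 17 and 0.513 over the 20 libraries), but with a Spearman rho of −0.0526 over the 20. The part of these cells in the level of Fcrl2 was not tested.

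**Figure D4:**
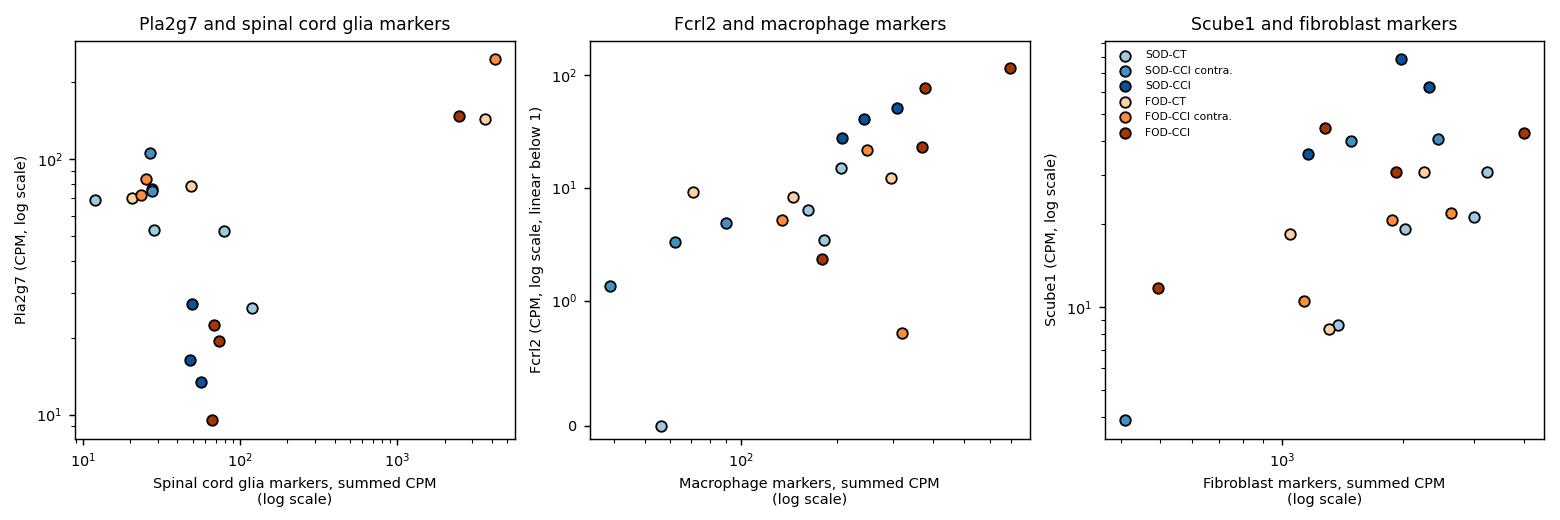
Pla2g7 against summed spinal cord glia markers, Fcrl2 against summed macrophage markers, and Scube1 against summed fibroblast markers (CPM, log axes, the Fcrl2 axis linear below 1), 1 point per library, colored by group. The 3 libraries on the right of the left panel, at 2475 to 4164 CPM, hold the highest Pla2g7 levels, and Scube1 is lowest where fibroblast markers are lowest.

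Scube1 followed fibroblast and mural cell markers. Its within-group r over the 17 libraries was 0.833 with 5 fibroblast markers, 0.839 with 6 mural cell markers, 0.786 with 8 Schwann cell markers, and 0.670 with the macrophage markers. Over all 20 libraries these were 0.839, 0.722, 0.363, and 0.393. With the endothelial markers, its within-group r was 0.59 over the 17 and −0.137 over the 20 libraries. In contralateral SOD-CCI replicate 1, where Scube1 was at 3.89 CPM, the fibroblast sum was 407.8 CPM and the Schwann cell sum 10360 CPM, the lowest of all 20 libraries for both. The other contralateral SOD-CCI libraries held 1487 and 2449 CPM of fibroblast markers. Without that rat, the side difference of Scube1 on SOD was 0.83, against 1.57 (SE 0.46) with it. The nerve injury sum correlated within groups with Ssc5d (r = 0.736) and Pdlim1 (r = 0.718) over the 17 libraries, and less with Fcrl2 (0.471), Smagp (0.401), Pla2g7 (0.240), and Scube1 (−0.115). Over all 20 libraries the order was another, with a within-group r of 0.782 for Smagp, 0.728 for Pdlim1, 0.644 for Ssc5d, 0.597 for Fcrl2, 0.256 for Scube1, and −0.58 for Pla2g7. All these points share rats and libraries, and the values are descriptions.

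The 6 genes were also compared with each other. Over 20 libraries the highest Spearman correlations between members were 0.789 for Fcrl2 and Smagp and 0.788 for Fcrl2 and Pdlim1, and the lowest was −0.811 for Smagp and Pla2g7. With group means removed over the 20 libraries, every pair among the 5 higher genes had a positive r, from 0.224 to 0.851, and Pla2g7 was negative with each, from −0.811 to −0.311. With the 3 libraries with spinal cord transcripts also left out, Ssc5d and Pdlim1 were at r = 0.778 and Ssc5d and Fcrl2 r = 0.639. Fcrl2 and Smagp went from 0.318 to −0.334 when those libraries were left out, and Pdlim1 and Scube1 from 0.403 to −0.082. Among 14435 genes, those ranking most like each member across the 20 libraries were, by Spearman's rho, Ssx2ip (0.907), Myadm (0.902), and LOC690617 (0.901) for Ssc5d, and Mmp19 (0.928), an unnamed row (0.919), and Prss12 (0.913) for Scube1. For Fcrl2 they were Ms4a6a (0.929), Cd74 (0.920), and Sox11 (0.920). Smagp was most like Tspo (0.917), Tubb6 (0.914), and Nabp1 (0.904). Pdlim1 was most like Sdc1 (0.953), A3galt2 (0.947), and Tubb2b (0.940). Pla2g7 was most like Slc25a33 (0.958), Ifitm10 (0.941), and Camkv (0.935). Of these, Sox11 and Tubb6 belong to the nerve injury list.

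Relatives of each gene were followed as 6 family lists, in which edgeR called no gene in any comparison. Within the SRCR family, 10 of 15 genes were tested in left DRG. After injury on SOD, 5 were higher and 5 lower, and the median log2FC was −0.01, the same as over all genes. After injury on FOD, 10 of 10 were higher, with a median of 0.56 against 0.01 over all genes. Prss12, a protease with SRCR domains, was at 1.01 (SE 0.39, adjusted p = 0.306 by edgeR) on SOD and Lgals3bp, a secreted galectin ligand, at 0.63 (SE 0.51, adjusted p = 0.593 by edgeR). On the side comparison, 8 of 9 SRCR genes were higher on the left on SOD (median 0.88 against 0.02 over all genes). On FOD 5 of 9 were higher (median 0.49). An unadjusted p under 0.05 was found for 2 of the 9 on SOD, against 8.48% of genes, and DESeq2 called both, Prss12 and Scara5.

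Of the Fc receptor genes, 6 of 12 were tested in left DRG, and 5 were higher after injury on SOD. Their median log2FC was 0.36, with none at an unadjusted p under 0.05 (13.8% of genes). After injury on FOD all 6 were higher, with a median of 1.23, and 2 had an unadjusted p under 0.05 (4.52% of genes). Macrophage markers after injury were higher in 8 of 9 on SOD (median 0.77) and in 9 of 9 on FOD (median 1.48). Left against contralateral on SOD, all 5 tested were higher, with a median of 1.40, and 3 had an unadjusted p under 0.05, against 8.48% of all genes. Macrophage markers moved with them, higher in 9 of 9 on SOD (median 2.17, 8 at an unadjusted p under 0.05, 7 called by DESeq2), with a median of 0.49 on FOD, and their part was not tested. The 3 Fc genes were Fcer1g, the shared signaling chain (1.40, SE 0.51), and the receptors Fcgr1a (2.22, SE 0.55) and Fcgr2a (1.75, SE 0.62). DESeq2 called Fcgr1a and Fcgr2a. On FOD, the median of the same 5, left against contralateral, was 0.00. In contralateral DRG all 5 were higher on FOD than on SOD, with a median of 1.84 against 0.04 over all genes, 3 had an unadjusted p under 0.05, and DESeq2 called Fcer1g. Fcgrt, the neonatal Fc receptor and the most abundant of the list, had group means between 59.8 and 78.9 CPM.

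Among 12 epithelial adhesion genes, 10 were tested and 6 were higher after injury on SOD (median log2FC 0.24). Jup, or plakoglobin, was at 0.87 (SE 0.34, adjusted p = 0.316 by edgeR) and Cldn1, or claudin-1, was lower on the left on FOD (−1.995, SE 0.48, adjusted p = 0.522 by edgeR). DESeq2 called Jup on SOD and Cldn1 on FOD in the side comparison. Of the PDZ-LIM genes and alpha-actinins, 10 of 12 were tested, 3 had an unadjusted p under 0.05 upward and 4 downward after injury on SOD, against 13.8% of all genes. DESeq2 called none. The downward ones included Actn3 and Ldb3, which are muscle genes, and the sham group holds the library with 129800 CPM of muscle markers. Actn4, a non-muscle alpha-actinin, was at 0.49 (SE 0.23, adjusted p = 0.359 by edgeR).

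The 10 PAF genes were all tested. After injury on SOD 6 were higher, around a median log2FC of 0.16, with a range from −0.33 to 0.58. The highest was Pafah1b1, a subunit of the intracellular PAF acetylhydrolase, and no relative was as far below sham as Pla2g7 (−1.40). After injury on FOD, 9 of the 10 were higher, around a median of 0.23. Pafah1b2, another subunit, had group means of 162.7 to 237.5 CPM. Left against contralateral on SOD, 2 of 10 had an unadjusted p under 0.05, both higher, and DESeq2 called 1, the phospholipase Pla2g4a (2.16, SE 0.83 by edgeR), which is named here after its value was seen. Of the SCUBE relatives and hedgehog partners, 9 of 10 were tested, 4 were higher after injury on SOD, and the median was −0.10. Shh, the hedgehog ligand, was at 0.59 (SE 0.25, adjusted p = 0.560 by edgeR) against contralateral on SOD, and Ptch1, its receptor, differed between diets in the side comparison by −1.85 (SE 0.50, adjusted p = 0.997 by edgeR, called by DESeq2).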

How the data were processed

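RNA was sequenced from poly-A libraries of 20 whole DRG. The authors used fastp for trimming, HISAT2 for alignment, and featureCounts for counting per gene (version 1.5.0-p3 by the submitters' processing notes). They deposited raw counts and FPKM made from them. The genome build, strand setting, and treatment of multi-mapping reads are not given in the sources used here, so genes that share reads with a near copy or an antisense gene are uncertain. The study left out 1 SOD-CCI and 1 FOD-CT sample for low RNA.

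Counts were tested with edgeR 4.0.16 (TMM scaling, quasi-likelihood test, Benjamini-Hochberg adjustment) in R 4.3.3, in 3 fits: 14 left libraries by group, 12 libraries of the 6 rats sequenced on both sides with the rat as a block, and 13 left sham and contralateral libraries. A gene was kept where 90% or more of the libraries had 10 or more counts, and all 6 genes passed each filter. Calls needed an adjusted p no higher than 0.1 together with a change of 1.2-fold or more. DESeq2 1.42.0 and the settings in the closing section were tried. CPM used TMM over all 20 libraries, and 95% intervals are 1.96 SE on each side. Left and right DRG are paired by the rat numbers in the labels (correlation of deviations 0.132 to 0.415, 6 of 6 rats over 0.1). In that fit, different rats with the same replicate number reached at most 0.11. In the other fits they reached 0.184 to 0.419 between FOD-CT and FOD-CCI, and 0.163 to 0.583 between FOD-CT and contralateral FOD-CCI. The correlation by itself thus does not mark shared rats.

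The 6 genes and all lists were chosen with earlier results of these data known. The 3 genes most like each member by Spearman's rho and the 4 most abundant genes of each family were eligible to be named. The scripts were tested on simulated counts.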

Additional observations from a re-analysis of the deposited data

Results flagged for a closer look

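Among the 12 groups of 4 libraries tested for a library far from the others (6 genes in SOD-CT and FOD-CCI), 1 stood out: Pla2g7 in FOD-CCI, where replicate 1 held 147.6 CPM and the other 3 libraries between 9.49 and 22.3 CPM. Its gap to the nearest library was 0.907 of the group's range. The limit that it exceeded is passed by chance in about 1 group in 20. The same library held 2475 CPM of spinal cord glia markers, and whether these transcripts account for its Pla2g7 level was not tested. Without it, the mean of FOD-CCI was 17.1 ± 6.72 CPM (SD, n = 3) in place of 49.7 ± 65.5 CPM (n = 4).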

How the results depend on the processing

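Several counts of calls depended on the setting, while for diet no edgeR setting called any of the 6 genes. DESeq2 called more genes than edgeR: 594 for injury on SOD, 21 for injury on FOD, 472 for side on SOD, 264 for side on FOD, 2 for diet after injury, 42 for diet by injury, 60 for diet by side, and 58 for diet in contralateral DRG. Of the 6 genes it called 4 for injury on SOD, 2 for injury on FOD, all 6 for side on SOD (Scube1 among them, adjusted p = 0.012 by DESeq2), 5 for side on FOD, and 2 for diet by side (Fcrl2 −1.92 and Smagp −2.56). Without a filter on low counts, 3 genes were called for diet by side, 220 for side on SOD, and 61 for side on FOD, 4 of them members. Without the 3 libraries with spinal cord transcripts, 87 genes (1 member) were called for injury on SOD, 471 for side on SOD, and 137 (5 members) for side on FOD. In the side fit, this setting is the same fit as without the rat of FOD-CCI replicate 1, since FOD-CT libraries are not part of it. The replicate number as a block in left DRG, where numbers do not mark shared animals, gave 1 gene for injury on SOD, the member Scube1. Leaving out the rat as a block took side on SOD and side on FOD to 0 genes and 0 members. With 1 library left out at a time, 0 to 47 genes (0 to 1 members) were called for injury on SOD and 0 to 43 (0 to 3) for injury on FOD. In the side fit 1 rat, with both of its libraries, was left out at a time. This gave 0 to 471 genes (0 to 5 members) for side on SOD and 0 to 137 (0 to 5) for side on FOD. Side on SOD fell to 0 without the rat of SOD-CCI replicate 1 or 2, and side on FOD without the rat of FOD-CCI replicate 3 or of SOD-CCI replicate 2. Some fold changes turned sign, and not all of them were near 0. With all libraries, Pla2g7 was at 1.40 for diet after injury and at 0.73 for diet in contralateral DRG. For diet after injury, Fcrl2 was −0.47 and Pdlim1 −0.34 with the replicate block, Pdlim1 was −0.0045 without a filter and −0.0025 with only the 2 groups, and Pla2g7 was −0.14 without the spinal cord libraries. For diet without injury, Scube1 was 0.048 with the block and 0.33 without those libraries. For diet by injury, the block gave Pdlim1 −0.017 and Smagp −0.18, and leaving out those libraries gave Fcrl2 0.33 and Pla2g7 −0.74. In contralateral DRG, leaving them out gave 0.25 for Pdlim1 and −0.063 for Pla2g7. Against sham, contralateral Pdlim1 on SOD was 0.0056 with the block, and on FOD Scube1 was 0.0665 with the block and Fcrl2 0.65 without those libraries. The cause of these shifts was not tested. Low counts, down to 0 for Fcrl2 and 28 for Smagp in single libraries, limit the precision of both genes.

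When each library, or in the side fit each rat with both of its libraries, was left out in turn, the log2FC crossed 0 in these cases. For diet after injury, Fcrl2 ranged from −0.26 to 0.86, Pdlim1 from −0.35 to 0.32, and Pla2g7 from −0.14 to 1.74. For diet without injury, Scube1 ranged from −0.54 to 0.33 and Ssc5d from −0.61 to 0.11. For diet by injury, Fcrl2 ranged from −1.14 to 0.16, Pla2g7 from −1.13 to 0.80, Smagp from −0.21 to 0.57, and Ssc5d from −0.72 to 0.078. For diet by side, Pdlim1 ranged from −0.27 to 0.021. In contralateral DRG, Fcrl2 ranged from −0.035 to 2.15, Pdlim1 from −0.72 to 0.25, and Pla2g7 from −0.062 to 1.03. Against sham on SOD, Pdlim1 ranged from −0.23 to 0.11 and Ssc5d from −0.12 to 0.49, and on FOD Fcrl2 from −1.69 to 0.46, Pdlim1 from −0.39 to 0.56, Pla2g7 from −0.30 to 0.87, Scube1 from −0.45 to 0.44, and Smagp from −0.24 to 0.43.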
